A study of Glycine max with 30 samples.

Results

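Accessible chromatin of soybean leaves sampled around subjective dawn was set against that of leaves sampled around subjective dusk. The dawn group comprised the 9 libraries labelled ZT20, ZT0 and ZT4, and the dusk group the 9 libraries labelled ZT8, ZT12 and ZT16, chosen by their time labels alone. Together they were 18 of the 30 samples of the series. All 18 came from first trifoliate leaves of the wild-type cultivar Ws82, which carried no mutation or transgene. The plants had been raised in short days of 8 h light and then kept in constant light for 1 day. They were then sampled every 4 h, with no dark period during sampling. The paper describes a single run of harvests, in which ZT0 and ZT20 as labelled here would be the first and last. The dawn group thus joins both ends of that run. ZT (zeitgeber time) counts hours from the time at which light would have come on, so the lights of the earlier short days would have gone off at ZT8. The replicates L, M and R of a time point were independent biological replicates, each from plants selected for even growth, and whole leaves mix all their cell types. In such bulk tissue, fewer nuclei of a type with open chromatin and less open chromatin per nucleus cannot be told apart. The other 12 samples, labelled Ws82, luxs and lhys at ZT24 and ZT36, were not analysed here.

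The plant circadian clock is a set of interlocked loops of transcriptional repressors. LHY and CCA1, MYB-type repressors, peak around dawn, pseudo-response regulators follow through the day, and TOC1 and the evening complex with LUX and ELF3 act around dusk and in the night. ATAC-seq (assay for transposase-accessible chromatin) finds DNA open to a transposase, mostly promoters, enhancers and other regulatory DNA that these factors could reach, and the question was whether such regions differ between dawn and dusk.

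Peaks were listed for each library, and the accessible chromatin regions (ACRs) of each time point in a merged list with no heights. Joining the 6 merged lists gave 35922 regions with a median width of 379 bp. A library called a region when any of its peaks shared at least 1 bp with it. Positions are those of the Wm82.a2.v1 assembly, and regions are given without gene names because no annotation of that assembly was used here.

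The dusk group had more peaks on average, but the groups overlapped. The dawn libraries had a lowest, median and highest peak number of 7668, 11432 and 16424. In the dusk libraries these were 8143, 15942 and 21804. The means were 12033 ± 3082 (SD, n = 9) at dawn and 15060 ± 4476 (SD, n = 9) at dusk, a difference that did not exceed the spread between libraries (exact permutation test, two-sided, p = 0.113, adjusted p = 0.338 over 6 library measures). The libraries of both groups thus spread over much of the same range, with the 3 highest counts at dusk and ZT8 replicate R, a dusk library, next to the lowest. Without ZT8 replicate R the unadjusted exact p was 0.0372 for peak number and 0.0217 for covered length, with an adjusted p of 0.112 for both.

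The other library measures also did not separate the groups. The covered length was 3.59 ± 0.941 Mb (SD, n = 9) at dawn and 4.62 ± 1.41 Mb (SD, n = 9) at dusk (exact permutation p = 0.0875). The median peak width was 254 ± 12.9 bp (SD, n = 9) at dawn and 260 ± 13.9 bp (SD, n = 9) at dusk (exact permutation p = 0.373). The share of peaks of 500 bp or more was 9.10 ± 1.46% (SD, n = 9) and 9.77 ± 1.72% (SD, n = 9), in the same order (exact permutation p = 0.393). The authors downsampled the libraries to a standard depth, so background coverage need not measure depth. The background coverage that the peak caller used, in fragments per base, could be recovered from the deposited values. It was 0.493 ± 0.0626 (SD, n = 9) at dawn and 0.532 ± 0.111 (SD, n = 9) at dusk (exact permutation p = 0.405). Soybean genes are concentrated towards the chromosome ends, and the share of peaks within 25% of the chromosome length from an end was 73.5 ± 1.60% (SD, n = 9) and 73.2 ± 2.43% (SD, n = 9) (exact permutation p = 0.734). Each of these 5 measures overlapped between the groups.

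**Figure D1:**
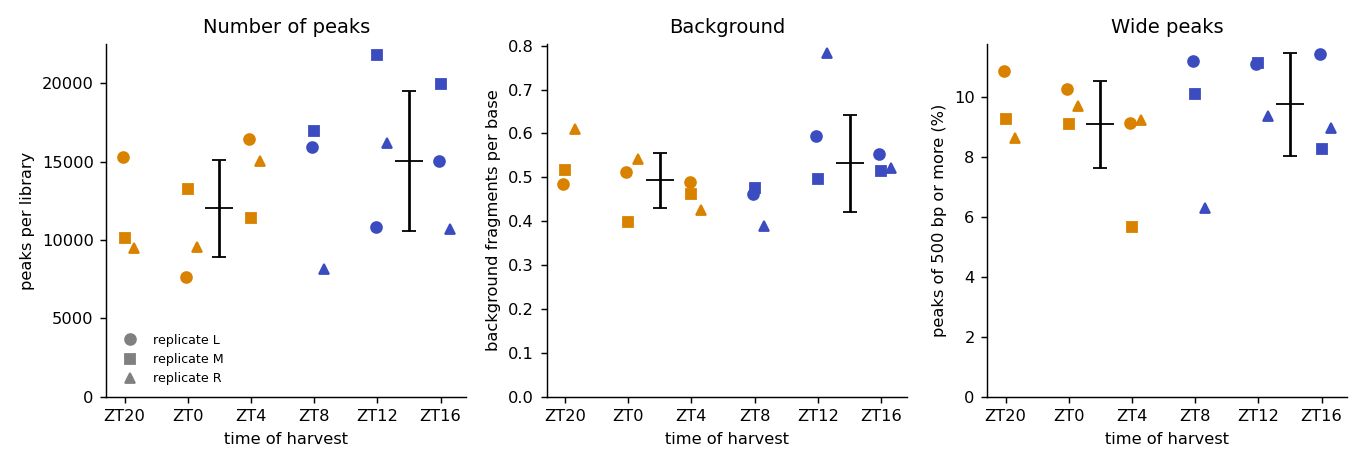
Number of peaks, background coverage in fragments per base and percent of peaks of 500 bp or more for each of the 18 libraries by time of harvest, with dawn libraries in orange and dusk libraries in blue. Black bars give the mean and SD of the 9 libraries of each group (12033 ± 3082 and 15060 ± 4476 peaks), and the groups overlap in all 3 measures.

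With all peaks counted, the regions with more calls at one time of the cycle leaned mostly to dusk. A region had a peak in 2.75 dawn libraries and 3.36 dusk libraries on average, which largely restates the peak numbers of the groups. There were 8780 regions with peaks in dusk libraries only against 4311 in dawn libraries only. Among regions with 5 or more calls, all in the same group, 171 were on the dusk side and 31 on the dawn side. Only 1 region had a peak in all 9 libraries of a group and none of the other, and it was a dawn region. The merged lists leaned the same way, with 443 regions in all 3 dusk lists and no dawn list, and 85 in all 3 dawn lists and no dusk list.

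No single region passed the test of calls. Each of the 10468 regions called in 5 to 13 libraries was tested with Fisher's exact test, two-sided, 9 libraries against 9, and 0 had a Benjamini-Hochberg adjusted p under 0.05 (0% of those tested), the smallest adjusted p being 0.431. At an unadjusted p under 0.05 there were 610 regions, 5.83% of those tested. Of these, 96 had more dawn calls (0.917%) and 514 more dusk calls (4.91%), so 84.3% were on the dusk side. The libraries of a group come from 3 time points and were treated as separate samples, so any structure by time point makes these p-values too small.

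The lean towards dusk went away once every library contributed the same number of peaks. With the 7668 peaks of highest −log10 q of each list, a region had 1.86 dawn and 1.87 dusk calls on average. Such near-equal means follow from the setting itself and are not a result. Of 5640 regions tested, 0 again had an adjusted p under 0.05 (0%, smallest 0.331) and 308 had an unadjusted p under 0.05 (5.46%). They were 165 regions with more dawn calls (2.93%) and 143 with more dusk calls (2.54%), so 46.4% were on the dusk side. The dusk share with equal numbers was 50.8% without ZT20 replicate M and 53.4% without ZT8 replicate R, so neither side led in all of these fits.

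The leaning regions were partly the same in both settings. Of the 96 dawn-leaning regions with all peaks, 29 were also among the 165 with equal numbers, which is 30.2% of the first list and 17.6% of the second. Of the 514 dusk-leaning regions, 63 were also among the 143 (12.3% and 44.1%). The calls with equal numbers are part of all calls. At this threshold a region could therefore not lean to dawn in one setting and to dusk in the other.

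**Figure D2:**
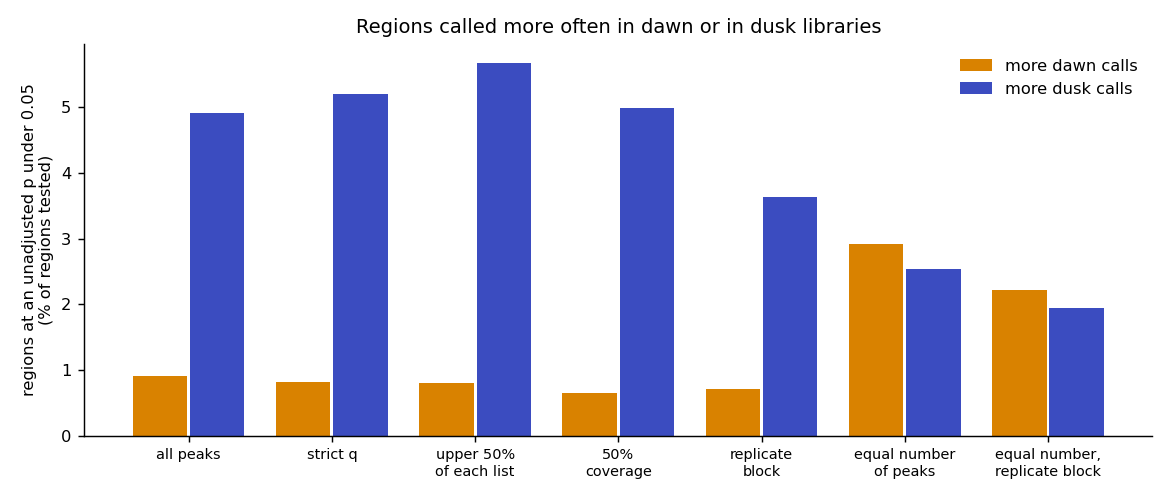
Percent of tested regions with an unadjusted p under 0.05 and more dawn calls (orange) or more dusk calls (blue), under 7 ways of counting peaks. Dusk leads with all peaks (4.91% against 0.917%) and in the stricter or blocked settings with unequal numbers, whereas at equal numbers of peaks dawn has 2.93% and dusk 2.54%.

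The time course of the calls within these regions, which were chosen by the same calls, is given as a description. With equal numbers, the 165 dawn-leaning regions had on average 2.40 of 3 libraries called at ZT20, 2.28 at ZT0 and 2.19 at ZT4. They had 0.473 at ZT8, 0.188 at ZT12 and 0.661 at ZT16, so ZT12 was the emptiest time point. The 143 dusk-leaning regions had 2.17 at ZT8, 2.33 at ZT12 and 2.32 at ZT16, and 0.343 at ZT0, their emptiest. Both sets thus had their minimum at the time point in the middle of the opposite group.

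Position and width of the leaning regions are given beside those of all tested regions. With equal numbers, 80.6% of the dawn-leaning regions (Wilson 95% interval 73.9 to 85.9%) and 81.1% of the dusk-leaning regions (73.9 to 86.7%) lay in this outer part of a chromosome, against 76.5% of all tested (75.4 to 77.6%). The intervals overlapped, they cover counting error only, and no difference was tested. Dawn-leaning regions were 611 bp wide at the median, dusk-leaning regions 534 bp and all tested regions 549 bp. With all peaks these widths were 584.5, 516 and 493 bp, so the dawn-leaning regions were the widest in both settings, and the shares in the outer part were 71.9%, 76.1% and 75.9%. Each set had members on all 20 chromosomes.

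As no region passed, the 3 first of each direction are given as examples and not as findings. With all peaks, the dawn region on chromosome 10 from 1537621 to 1538447 had a peak in 9 of 9 dawn and 0 of 9 dusk libraries (Fisher's exact p = 4.1e-05, adjusted p = 0.431). Its peaks were small, with 9 to 15 fragments at the summit. On chromosome 13, the region from 18427648 to 18428708 had a peak in 8 dawn and 0 dusk libraries, and that on chromosome 15 from 25784940 to 25785614 in 9 dawn libraries and 1 dusk library. With equal numbers these counts were 8 and 0, 6 and 0, and 4 and 0. Calls with equal numbers are part of all calls, and examples tied in p were ordered by their difference. The kept direction is thus no separate support.

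On the dusk side the examples were also small peaks. On chromosome 9, the region from 3415775 to 3416207 had a peak in 9 dusk libraries and 1 dawn library, with 5 to 17 fragments at dusk and 4 in the dawn library. On chromosome 13, that from 28000989 to 28001488 had one in 8 dusk and 0 dawn libraries. On chromosome 8, that from 19300464 to 19301628 had one in 9 dusk libraries and 1 dawn library, but with equal numbers in only 4 dusk libraries and 1 dawn library. At such heights, the lack of a peak in a library does not show that the region was closed there.

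With equal numbers of peaks, an order added after seeing the data, 1 region was again among the 3 first of its direction. This was the dawn region on chromosome 10 from 1537621 to 1538447, in 8 dawn and 0 dusk libraries (Fisher's exact p = 0.000411, adjusted p = 0.331). The others were new to the examples. On chromosome 4 the region from 48711489 to 48712466 was called in 8 dawn and 0 dusk libraries, and on chromosome 3 the region from 42490320 to 42490835 likewise (Fisher's exact p = 0.000411 each, adjusted p = 0.331). On the dusk side, on chromosome 16 the region from 27122979 to 27123524 had a peak in 9 dusk libraries and 1 dawn library. On chromosome 6 from 3543587 to 3544322 and on chromosome 8 from 41570852 to 41571409, 9 dusk and 2 dawn libraries had a peak. With all peaks the dawn regions on chromosomes 4 and 3 also had peaks at dusk. That on chromosome 4 had them in 9 dawn and 2 dusk libraries (Fisher's exact p = 0.0023). That on chromosome 3 had them in 8 dawn and 3 dusk libraries (Fisher's exact p = 0.0498). The dusk regions on chromosomes 16, 6 and 8 likewise had peaks in more dawn libraries, 4, 7 and 4, beside all 9 dusk libraries.

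Whole libraries of a group resembled each other slightly more than libraries of opposite groups. The base-pair Jaccard index, the length shared by 2 peak lists over the length covered by either, averaged 0.325 for pairs within a group and 0.316 for pairs between groups, leaving out pairs of the same time point. The difference of 0.00862 had an exact permutation p of 0.0448, one-sided over all assignments of 9 and 9 libraries. With equal numbers of peaks the difference was 0.00606 (exact permutation p = 0.0180). These permutations also break up time points, whose replicates resemble each other, so the p-values do not measure the groups alone. With all peaks, leaving out a single library took the p over 0.05 in 11 of 18 cases, up to 0.115 without ZT12 replicate M.

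Whether pairs within a group had the higher index differed between distances of 4 and 8 h. Around the daily cycle, pairs within a group are 4 or 8 h apart, whereas pairs between groups are 4, 8 or 12 h apart. In the run of harvests ZT20 would come last, so some pairs, such as ZT20 with ZT0 and ZT4, lie further apart in elapsed time. At 4 h the mean index was 0.328 within dawn, 0.323 within dusk and 0.332 between groups. With equal numbers of peaks it was 0.381, 0.404 and 0.402 in the same order. At 8 h pairs within a group had the higher index, 0.326 within dawn and 0.322 within dusk against 0.310 between groups, and 0.3907, 0.3904 and 0.3797 with equal numbers. These differences at a matched distance were not tested. Between groups the index was no lower at 12 h than at 8 h, with 0.314 for all peaks and 0.383 for equal numbers. With all peaks the 12 h pairs were ZT20 and ZT8 at 0.301, ZT0 and ZT12 at 0.301, and ZT4 and ZT16 at 0.339. The pair of time points with the highest index with all peaks was ZT16 and ZT20 at 0.343, on either side of the boundary. With equal numbers it was ZT12 and ZT16 at 0.428, and the lowest was ZT0 and ZT8 at 0.358.

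**Figure D3:**
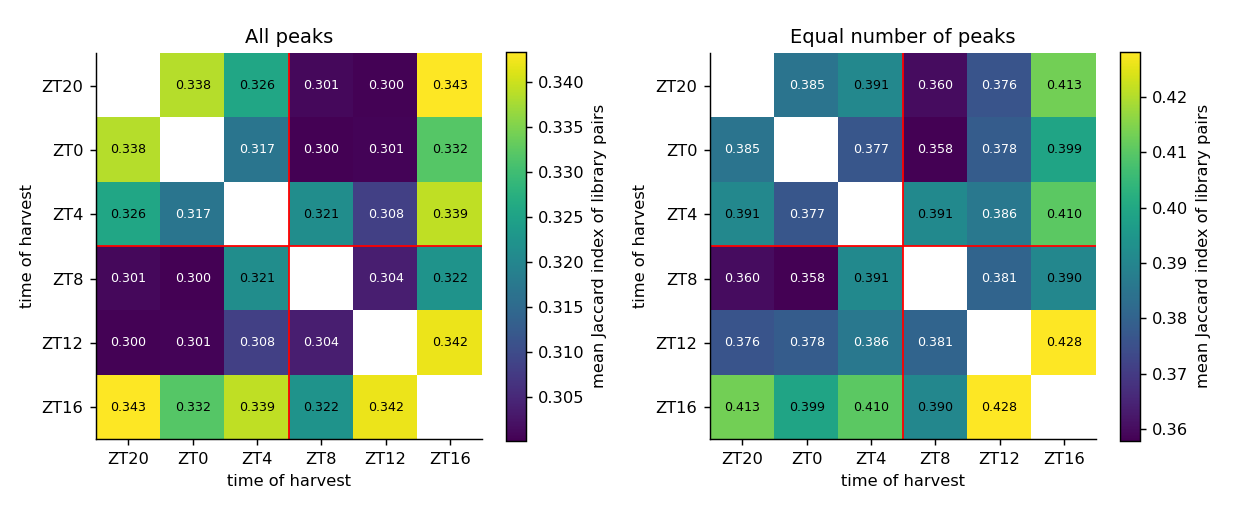
Mean base-pair Jaccard index of the 9 library pairs between each pair of time points, with all peaks (left) and an equal number of peaks (right). Red lines separate the dawn group from the dusk group. Across that border ZT16 and ZT20 had a higher index (0.343) than every pair within a group with all peaks. With equal numbers (0.413) only ZT12 and ZT16 were higher among the pairs within a group (0.428).

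A call is yes or no, so heights were compared next. The values of a peak (−log10 q, fold over background) can differ with the depth and background of the library. Peaks were therefore first ranked within each list by −log10 q. Only the 2275 regions with a peak in all 18 libraries had a rank throughout, and a region closed in any library could not enter. By limma's moderated test on log2 ranks, 9 regions (0.396% of those tested) had an adjusted p under 0.05, 5 ranked higher at dawn (0.22%) and 4 higher at dusk (0.176%), each with an adjusted p of 0.0471. At an unadjusted p under 0.05 there were 216 regions, 9.49%. The median difference over all 2275 regions was −0.04 on the log2 scale.

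These 9 calls were close to the threshold. In fits without 1 library the count was between 0 and 5, and it was 0 in 13 of the 18. It was 3 without ZT4 replicate L, 4 without ZT8 replicate M, 1 without ZT8 replicate R, 2 without ZT12 replicate R and 5 without ZT16 replicate M. It was 0 with time-point means as samples, with the exact rank-sum test and with the replicate block (smallest adjusted p 0.0522), and 1 with peak number as a covariate. Restricting the lists to equal numbers of peaks gave 8 regions of 1819 tested, of which 7 were among the 9.

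The dawn-higher region with the largest rank difference lay on chromosome 14 from 617663 to 618471, with a median rank of 1465 at dawn and 3939 at dusk (log2 difference 1.56, SE 0.352). The others were on chromosome 9 from 37788830 to 37789668, chromosome 7 from 8360174 to 8360989, chromosome 2 from 48296736 to 48297360 and chromosome 4 from 4830107 to 4831174. The last had the smallest difference, from a median rank of 615 at dawn to 847 at dusk (log2 difference 0.47, SE 0.102). Among the dusk-higher regions, that on chromosome 7 from 5363379 to 5363645 went from a median rank of 2453 at dawn to 1179 at dusk (log2 difference −1.15, SE 0.260). The other 3 lay on chromosome 5 from 36518632 to 36519001, chromosome 2 from 47379139 to 47379660 and chromosome 15 from 656202 to 656733. In none of the 2275 regions did the ranks of the groups fail to overlap.

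A rank is relative to the other peaks, so the height itself was also compared, in a measure added after seeing the data. The fold and the −log10 p of a peak together fix the whole number of fragments at its summit, and this number was recovered for every peak of the 18 lists. It was scaled between libraries by the median ratio over the 2275 shared regions. By limma on log2 scaled summit fragments, 48 regions (2.11%) differed between the groups at an adjusted p under 0.05. Of these, 26 were higher at dawn (1.14%) and 22 higher at dusk (0.967%), and 413 (18.2%) had an unadjusted p under 0.05. Of the 9 regions called by rank, 7 were among the 48.

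The count depended on how time points and libraries entered. With the time point as a block and an estimated correlation of 0.0825, 21 regions were called, 16 dawn and 5 dusk. With time-point means as samples, 3 against 3, 0 were called (smallest limma adjusted p 0.357, 285 at an unadjusted p under 0.05). With peak number as a covariate 18 were called, 15 dawn and 3 dusk. In this balanced design the block and the time-point means change the error and leave the difference itself the same. Leaving out 1 library gave 24 without ZT0 replicate R, 29 without ZT12 replicate L, 29 without ZT12 replicate M and 97 without ZT8 replicate R.

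The split between the directions depended on the scaling. Quantile normalisation gave 32 dawn-higher and 13 dusk-higher regions, and scaling over the weaker shared regions alone, described below, gave 43 and 16, in place of 26 and 22.

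The clearest dawn-higher region was that on chromosome 14 from 617663 to 618471, an ACR of 809 bp. Its lowest, median and highest scaled summit fragments were 21.5, 25.5 and 38.05 at dawn. At dusk they were 7.95, 10.98 and 21.4. Every dawn library was thus above every dusk library, which held for 2 of the 2275 regions (0.0879%), both dawn-higher. The fold was 2.17 (log2 1.12, SE 0.171, limma adjusted p = 0.000165), and the adjusted p was 0.000416 with the time-point block and 0.000789 with peak number as covariate. By time point it averaged 24.3 at ZT20, 24.4 at ZT0 and 36.04 at ZT4, and 18.9 at ZT8, 9.68 at ZT12 and 11.9 at ZT16, a step down from ZT4 that went on to ZT12.

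The other region with no overlap was on chromosome 1 from 40074217 to 40075203. Its scaled summit fragments were 29.4, 37.1 and 41.9 at dawn (lowest, median, highest) and 9.05, 22.2 and 27.6 at dusk. The log2 difference was 0.90 (SE 0.165, limma adjusted p = 0.00316), a fold of 1.86. It was highest at ZT0, with a mean of 39.4, and lowest at ZT12, with 15.4. Its peaks were 798 bp wide at the median at dawn and 521 bp at dusk.

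The largest fold was also the most variable. On chromosome 5 from 32149313 to 32151259, a wide ACR of 1947 bp, the scaled summit fragments were 18.0, 39.4 and 57.6 at dawn and 7.07, 11.3 and 41.9 at dusk, a fold of 2.33 (log2 1.22, SE 0.255, limma adjusted p = 0.00816). The groups overlapped, and the overlap came from the time points next to the border. ZT8 averaged 34.0 and ZT20 averaged 20.4, while ZT0 and ZT4 averaged 41.5 and 49.0 and ZT12 and ZT16 averaged 8.61 and 11.3. Its high values ran from ZT0 to ZT8 and so later than the dawn group.

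The regions on chromosome 16 from 36619849 to 36620646 and on chromosome 9 from 37788830 to 37789668 had a like course. On chromosome 16 the mean was 35.7 at ZT8, close to 35.6 at ZT20, and fell to 14.1 at ZT12. On chromosome 9 it was 36.1 at ZT8 against 32.1 at ZT20 and 12.5 at ZT12. In contrast, the region on chromosome 7 from 8360174 to 8360989 already had its lowest mean at ZT8, 12.6, after 24.9, 23.4 and 22.3 at ZT20, ZT0 and ZT4 (log2 0.73, SE 0.147, limma adjusted p = 0.00699). The remaining dawn-higher regions among the 10 of smallest p lay on chromosome 15 from 21577863 to 21578436, chromosome 10 from 4361895 to 4362414, chromosome 13 from 20904723 to 20905880 and chromosome 2 from 48296736 to 48297360, with log2 differences between 0.65 and 0.86.

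The dusk-higher regions had smaller differences and none without overlap. The region of smallest p lay on chromosome 10 from 39032813 to 39034396, an ACR of 1584 bp. Its scaled summit fragments were 10.4, 14.3 and 21.5 at dawn (lowest, median, highest) and 17.3, 23.0 and 29.8 at dusk. The log2 difference was −0.66 (SE 0.145, limma adjusted p = 0.0129), 1.58-fold higher at dusk, and the adjusted p was 0.0346 with the time-point block. Of the 9 dusk libraries, 6 were above every dawn library. Its peaks widened with height, from 839 bp at the median at dawn to 1335 bp at dusk.

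A second dusk-higher region lay 16.0 kb from it, on chromosome 10 from 39050430 to 39051990 (log2 −0.51, SE 0.128, limma adjusted p = 0.0231). The next closest pair among the 48, on chromosome 5, was 114 kb apart and had 1 region of each direction. The adjusted p of the second was 0.0538 without ZT20 replicate L, 0.0510 without ZT12 replicate M and 0.0606 with the time-point block.

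The dusk-higher region on chromosome 15 from 11354479 to 11355266 had scaled summit fragments of 8.62, 13.3 and 24.4 at dawn and 18.2, 21.6 and 29.8 at dusk (log2 −0.69, SE 0.157, limma adjusted p = 0.0146). The highest dawn value, in ZT4 replicate R, was above most dusk libraries, and only 2 dusk libraries exceeded it. On chromosome 2 from 39884659 to 39885367, the values were 8.16, 10.9 and 17.4 at dawn and 13.3, 19.2 and 25.1 at dusk (log2 −0.69, SE 0.160, limma adjusted p = 0.0157). This region rose from a mean of 8.84 at ZT0 to 16.4 at ZT4, before the dusk group begins. The region on chromosome 7 from 5363379 to 5363645, also called by rank, had its highest mean, 26.9, at ZT12 and its lowest, 13.8, at ZT4 (log2 −0.62, SE 0.146, limma adjusted p = 0.0169).

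Peak number as a covariate ended the call for 7 of the 10 dusk-higher regions of smallest p and for 1 of the 10 dawn-higher ones. In that fit the log2 difference of the region on chromosome 15 from 11354479 to 11355266 went to −0.57 (limma adjusted p = 0.0709), that on chromosome 2 from 39884659 to 39885367 to −0.57 (0.0739) and that on chromosome 7 from 5363379 to 5363645 to −0.59 (0.0553). The region on chromosome 10 from 39032813 to 39034396 stood at −0.69 and kept its call (0.0267). The dawn-higher region on chromosome 9 from 37788830 to 37789668 went from 0.82 to 0.75 (limma adjusted p 0.0146 without and 0.0603 with the covariate). The remaining dusk-higher regions among the 10 of smallest p lay on chromosome 3 from 3514390 to 3514916, chromosome 12 from 36084288 to 36084922, chromosome 6 from 17608282 to 17608702, chromosome 10 from 39535570 to 39536144 and chromosome 14 from 7526870 to 7527201. Their log2 differences were between −0.65 and −0.55, and none of these 5 calls held in both of the other fits. With the time-point block the limma adjusted p was 0.0553 for that on chromosome 12, 0.0580 for that on chromosome 6, 0.0553 for that on chromosome 10 and 0.0563 for that on chromosome 14. With the covariate it was 0.0817 for that on chromosome 3, 0.0979 for that on chromosome 10 and 0.0823 for that on chromosome 14.

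**Figure D4:**
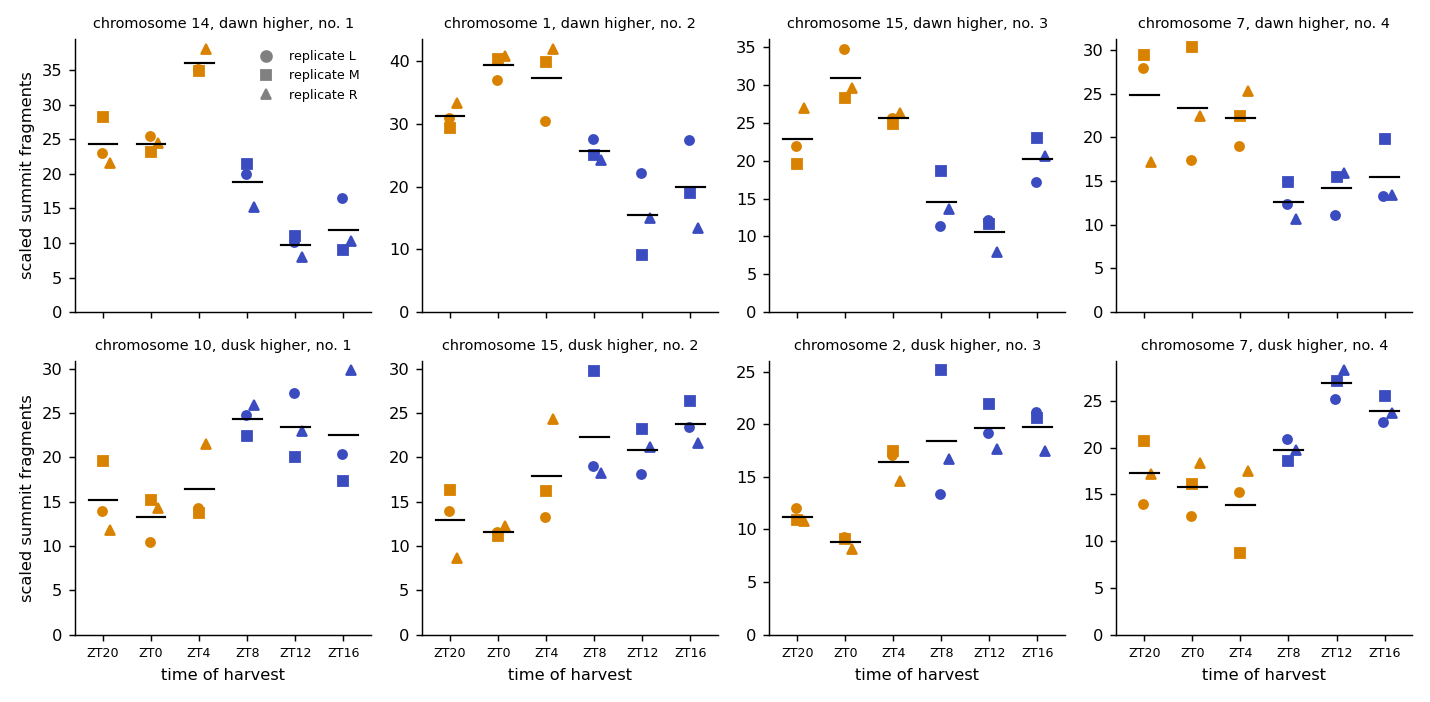
Scaled summit fragments in each of the 18 libraries for the 4 dawn-higher (upper row) and 4 dusk-higher (lower row) regions of smallest p, with a horizontal line at the mean of each time point. In the first 2 dawn-higher panels every orange point is above every blue point, with dawn values from 21.5 to 38.05 and dusk values from 7.95 to 21.4 in the first, and the dusk-higher panels overlap.

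Over the cycle the called regions moved in 2 broad courses, described here without a test because the same values chose them. The 26 dawn-higher regions had a mean log2 deviation of 0.29 at ZT20, 0.38 at ZT0 and 0.42 at ZT4 from their own mean, −0.22 at ZT8, −0.66 at ZT12 and −0.21 at ZT16. They had their highest mean at ZT4 in 13 regions, at ZT0 in 8 and at ZT20 in 5, and their lowest at ZT12 in 18. Among all 2275 shared regions ZT12 was also the most frequent lowest time point, in 548 of them. ZT12 replicate M was the library with the most peaks. In 19 of the 26 each dawn time point was above each dusk time point.

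The 22 dusk-higher regions had their highest mean deviation at ZT12. Their mean log2 deviation was 0.24 at ZT8, 0.35 at ZT12 and 0.29 at ZT16, and −0.34 at ZT20, −0.44 at ZT0 and −0.11 at ZT4. In all 22 each dusk time point was above each dawn time point, against 210 of the 2275 shared regions, and 198 shared regions had each dawn time point above each dusk time point. The lowest mean was at ZT0 in 12 of the 22 and at ZT4 in 3, so ZT4 lay between the low and the high time points. Of all 2275 shared regions, 428 had their lowest mean at ZT0. The median log2 difference was 0.71 for the dawn-higher and −0.58 for the dusk-higher regions, beside −0.00364 for all shared regions.

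Peak width followed height in both sets. Median peak width was 456 bp at dawn and 366 bp at dusk for the dawn-higher regions, and 373 and 466 bp for the dusk-higher regions. All 26 dawn-higher regions and none of the 22 dusk-higher regions had a larger mean log2 width at dawn, as did 780 of the 2275 shared regions. Width is set by the same fragments as height and is not an independent measure. Of the dawn-higher regions 21 of 26 (80.8%) and of the dusk-higher regions 19 of 22 (86.4%) lay in the outer part of a chromosome. The share was 70.8% of all shared regions and 75.7% of the 1900 weaker ones described below, which hold all 48. No difference in these shares was tested. The dawn-higher and dusk-higher regions were spread over 17 and 14 chromosomes.

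**Figure D5:**
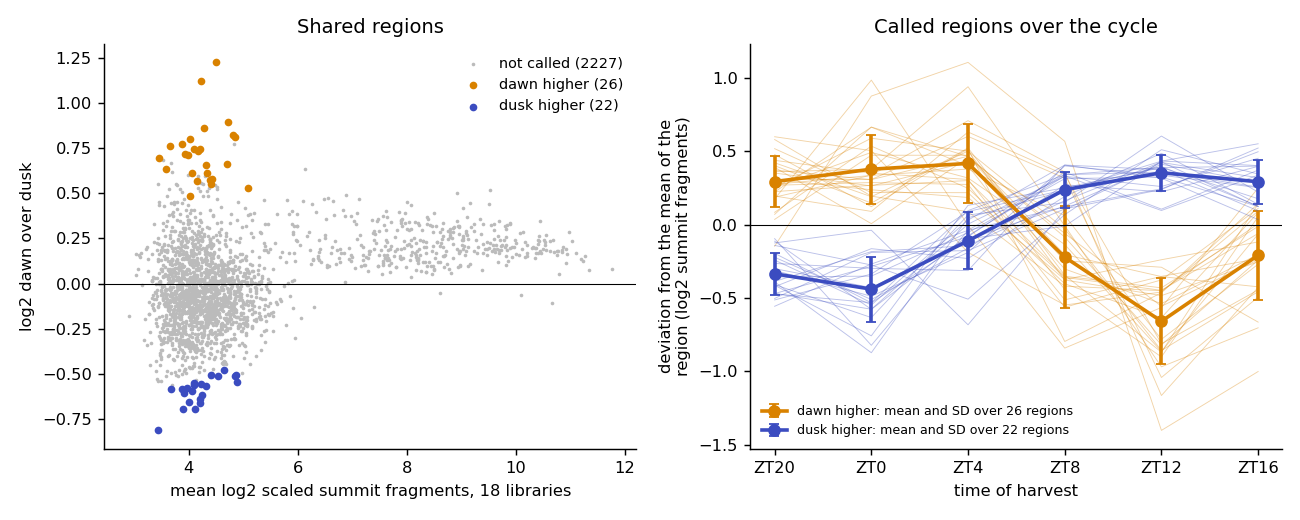
Left, log2 difference dawn over dusk in scaled summit fragments against the mean log2 scaled fragments of the 2275 shared regions, with the 26 dawn-higher regions in orange and the 22 dusk-higher in blue. Right, each called region's deviation from its own mean by time point (log2), with the mean and SD over regions as thick lines; dawn-higher regions are lowest at ZT12 (−0.66), dusk-higher regions at ZT0 (−0.44), and the cloud of high regions on the left lies above 0 as a whole.

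The strongest shared regions moved together, a pattern noticed in the plot of differences against means and split there at a mean of 64 scaled fragments. Of the 375 regions at or above it, 370 (98.7%) had a positive log2 difference dawn over dusk, with a median of 0.20 and quartiles of 0.15 and 0.28. Of the other 1900 regions 752 (39.6%) did, with a median of −0.06. None of the 375 had an adjusted p under 0.05 by limma, 96 had an unadjusted p under 0.05, and all 48 calls were among the 1900. As the 375 move as 1 block, their common sign is a single observation on the libraries.

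By library that block overlapped between the groups. The median log2 deviation of the 375 regions was −0.12, 0.13 and 0.28 at dawn (lowest, median, highest of 9 libraries) and −0.70, −0.05 and 0.35 at dusk. The lowest library was ZT12 replicate M, which had the most peaks (21804), and the highest was ZT8 replicate R, a dusk library with 8143 peaks. Without ZT12 replicate M the median difference of the block was 0.13, still with 363 of 375 regions positive, and with peak number as a covariate it was 0.08, with 321 positive. Across the 18 libraries the deviation fell with log2 peak number (Pearson r = −0.78, Spearman rho = −0.72). Within dawn r was −0.62 and within dusk −0.82, and it was −0.73 without ZT0 replicate L and ZT8 replicate R. Scaling over the other 1900 regions left 370 of 375 positive, with a median of 0.25. Quantile normalisation, which forces the libraries onto 1 distribution and so removes by construction a shift shared by the strongest regions, left 173 of 375 positive and a median of −0.01. Its part in the other differences was not tested beyond the scaling over the 1900 regions given above.

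The block also differed in place and shape. Its regions had a median mean of 354 scaled fragments against 18.3 for the others. They were narrower, 309 against 681 bp at the median, and 45.9% of them lay in the outer part of a chromosome against 75.7% of the others. They were on all 20 chromosomes, with at most 32 on one, chromosome 17. The authors let a read pair keep 10 alignments at most, and whether these regions hold repeated or organelle-like sequence was not tested.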

How the data were processed

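Alignment by the authors used Bowtie2 and the Wm82.a2.v1 assembly, and a read pair kept 10 places at most. They ran MACS2 on each downsampled library and on the merged reads of each time point. The deposited library lists hold each peak's position, its fold over background (a ratio), −log10 p and −log10 q values and an integer score. The deposited merged lists hold the positions of regions. The paper describes removing the highest 0.5% of signals and regions of low signal after the time points were integrated. Whether the merged lists used here had passed these steps was not tested. No column was left unmapped.

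The members and lists were chosen with earlier results of these data known. Calls were compared by Fisher's exact test, ranks and log2 scaled summit fragments by limma 3.58.1 in R 4.3.3 with a trend, and library values by exact permutation, each with p-values adjusted by Benjamini-Hochberg and called under 0.05. Summit fragments n and background b were solved from fold = (n + 1)/(b + 1) and the Poisson p, to within 0.001 in −log10 p, with a whole number found for 100% of peaks and, for numbers moved by 0.5 fragments, for at most 9.66%. The value of b used as background coverage is the most frequent in a library. The measure was added after seeing the data. Named regions were up to 10 per direction at an adjusted p under 0.05, or the first 3 by p where none passed. Scripts were tested on simulated data. Alternatives were equal numbers of peaks, a −log10 q minimum of 5, the upper 50% of a list, 50% coverage, other region sets and rank scales, covariates, blocks and each library left out. Motifs, sequences and clock genes were not analysed, as no genome of this assembly was used. Python 3.11.15, numpy 2.4.6, pandas 2.3.3, scipy 1.17.1 and matplotlib 3.10.9 were used.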

Additional observations from a re-analysis of the deposited data

Results flagged for a closer look

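In groups of 9 libraries, 64 sets of values (library measures and the scaled summit fragments of the named regions, by dawn or dusk) were searched for a library far from the others, with Dixon's criterion (gap over range above 0.493). Chance alone would flag about 1 in 20 groups, and 6 of the 64 met it. ZT4 replicate M had the narrowest peaks of the dawn group, with a median of 223 bp where the next library had 252 bp, and the smallest share of peaks of 500 bp or more, 5.66% where the next had 8.65%. ZT12 replicate R had the lowest share of peaks in the outer part of a chromosome of the dusk group, 67.5% where the next had 72.3%, and it was also the library with the highest background coverage.

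At single regions 3 libraries stood apart. On chromosome 2 from 48296736 to 48297360, a dawn-higher region, ZT8 replicate M had 37.2 scaled summit fragments and the next dusk library 23.8. On chromosome 10 from 4361895 to 4362414, also dawn-higher, ZT16 replicate L had 21.1 and the next dusk library 15.1. On chromosome 15 from 11354479 to 11355266, a dusk-higher region, ZT4 replicate R had 24.4 and the next dawn library 16.3. In each of the 3 regions the library that stood apart lay towards the other group.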

How the results depend on the processing

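No region passed the adjusted threshold by calls under any alternative run, nor in the fits without 1 library (0 to 0 regions, with all or with equal numbers of peaks). The 610 regions at an unadjusted p under 0.05 became 308, 378 and 357 with equal numbers of peaks, a −log10 q of at least 5 and the upper 50% of peaks, 3 settings that count fewer peaks, 235 with the replicate block and equal numbers, and 605 to 992 without 1 library, where the steps of the discrete test change. The dusk side held 84.3% of them, but 46.4% with equal numbers, 46.8% with the replicate block and equal numbers, 87.7% in the upper 50%, 88.6% at 50% coverage and 76.9% to 89.9% without 1 library. With equal numbers, fits without 1 library gave 345 to 410 regions and a dusk share from 43.2% to 53.4%.

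The 9 regions by rank became 0 on the percent-rank scale (which moved the median of all regions to −0.37), in regions called in 9 or more libraries, with time-point means, the replicate block, the exact rank-sum test and the time point as a block, 1 with peak number as covariate, and 0 to 5 without 1 library. The 48 by summit fragments became 0 with time-point means, 21 with the time point as a block, 18 with peak number as covariate and 24 to 97 without 1 library. The causes were not tested. Of the 20 regions named by fragments, 12 of 360 fits without 1 library lost a call, and none changed direction. The 20 were chosen by their p in the full fit, and these fits kept its scaling. Calls and directions that were kept are thus no separate support.

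The difference in the share of peaks near chromosome ends turned to −0.453 percentage points at a −log10 q of at least 5 and to −0.573 in the upper 50%, and without 1 library it lay from −0.341 to 0.754. Without 1 library, the difference in peak number ranged from −3892 to −2184 and in covered length from −1.32 to −0.747 Mb. The Jaccard difference was 0.0120 at a −log10 q of at least 5 (exact permutation p = 0.0504) and 0.00477 to 0.0128 without 1 library. It was not past 0.05 without ZT20 M or R, ZT0 L, M or R, ZT4 M, ZT8 L or M, or ZT12 L, M or R.

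Replicate letters share only a letter: deviations of the 45 same-letter pairs correlated between −0.0356 and 0.0365, with 0 over 0.1. Under the replicate block, 455 regions had a p under 0.05 by calls before adjustment, 46 differed by fragments and the Jaccard p was 0.0383. Motif, sequence and clock-gene comparisons were not run. The summits of the weak peaks rest on few fragments, and the part of depth in their calls was not tested.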
